A study of Homo sapiens with 2 samples.

Results

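Genes of the Hippo pathway and known targets of its effectors YAP and TAZ were examined in MDA-MB-231 cells, a human cell line established from a triple-negative breast cancer. The 36 genes were taken by name from a table of 29452 gene rows: 20 encode pathway components and 16 are targets, and all 36 had a row. RNA was sequenced from cells carrying a short hairpin RNA against CDK14 (CDK14-sh) and from cells carrying a scramble control, with 1 library in each group. CDK14 is a cyclin-dependent kinase known for acting with cyclin Y in Wnt signalling. The labels name neither the hairpin sequence, nor a second hairpin, nor how long the cells carried it. With 1 library in each group there is no replicate check and no p-value, and "higher" and "lower" below describe these libraries. Levels are RPKM, reads per kilobase of exon scaled to library size, and the authors' values gave back whole reads, 15478156 in the CDK14-sh library and 17217564 in the scramble one. Folds are ratios of RPKM followed by a 95% Clopper-Pearson interval, which covers the counting of reads and no spread between cultures.

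The Hippo pathway is a kinase cascade known for limiting tissue growth and for responding to cell density, cell shape and attachment. The kinases MST1 and MST2 (genes STK4 and STK3), with the adaptor SAV1, activate the kinases LATS1 and LATS2, which with MOB1 phosphorylate YAP and TAZ and keep them out of the nucleus. When this phosphorylation is low, YAP and TAZ enter the nucleus, bind the TEAD transcription factors and switch on genes such as CTGF, CYR61 and ANKRD1. MDA-MB-231 is known to lack functional merlin, the product of NF2 that acts upstream of the cascade, and to hold active YAP and TAZ. RNA levels do not report phosphorylation or location in the cell, which carry much of this regulation.

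YAP1 had the lowest ratio of all 36 genes, while its paralog WWTR1, which encodes TAZ, stood at nearly the same level in both libraries. YAP1 (GRCh38, chromosome 11, 102110461 to 102233423, plus strand) had 15.3 RPKM in CDK14-sh and 46.0 RPKM in the scramble control, from 1493 and 4987 reads. It was 3.003-fold lower in CDK14-sh (2.83 to 3.18) and ranked 37 from the lowest ratio among 11542 protein-coding genes whose higher library had 30 reads or more. In RNA from a whole culture, fewer cells expressing a gene and less RNA in each cell cannot be told apart. The exons of YAP1 share 628 bases, 9.97% of their length, with the row RP11-864G5.3 on the opposite strand. That row was lower too, with 217 reads in CDK14-sh against 777 in the scramble control. The kit was a stranded one, but whether counting used strand is not stated in the labels, so reads of the shared bases may be in either row. With all reads of that row taken off, YAP1 was 2.97-fold lower. WWTR1 had 11.3 RPKM in CDK14-sh and 10.8 RPKM in the scramble control, a ratio of 1.052 whose interval (0.979 to 1.13) includes 1.

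**Figure D1:**
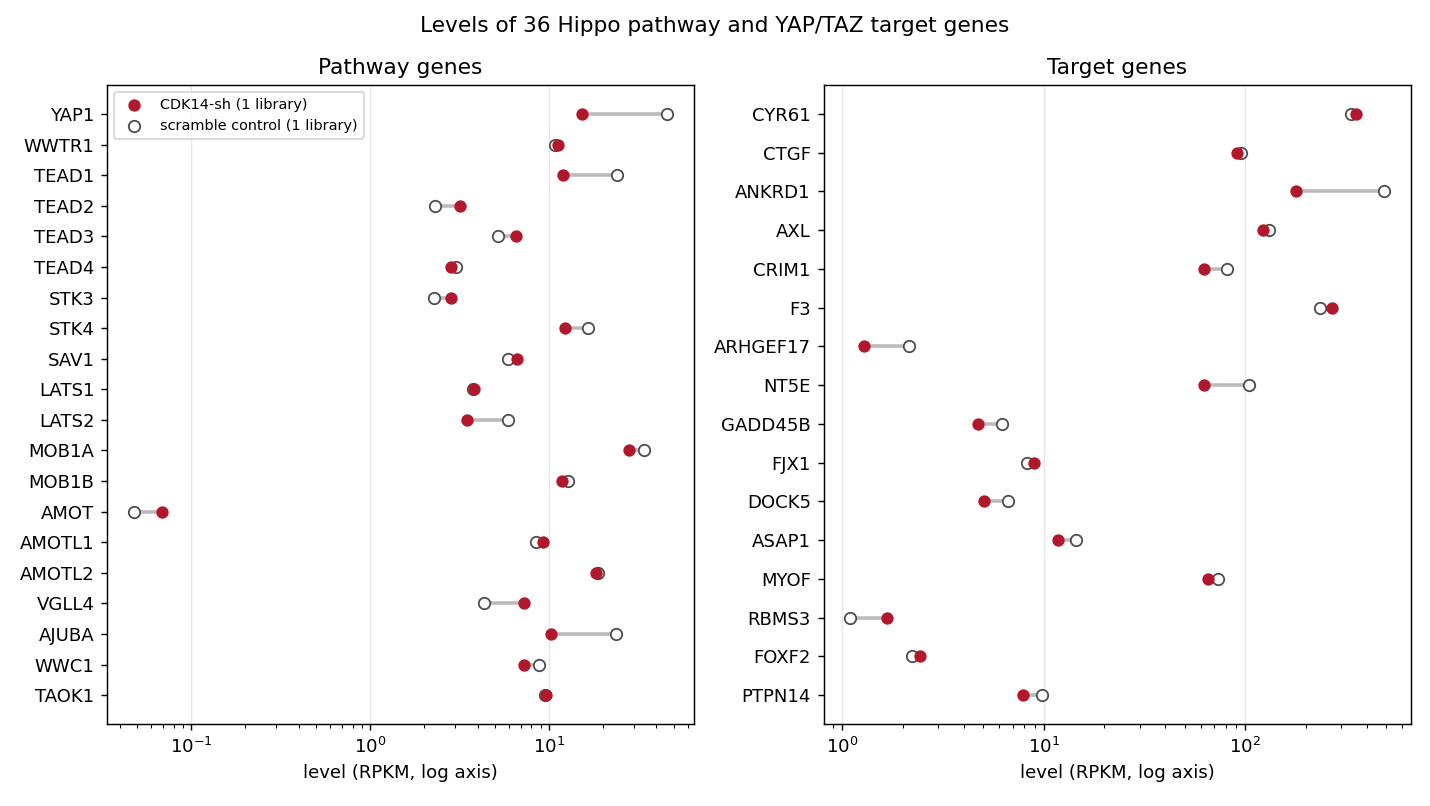
Level of each of the 36 genes in RPKM on a log axis, pathway genes on the left and targets on the right; filled points are the CDK14-sh library and open points the scramble control library, 1 library each. The widest gaps are those of YAP1 (15.3 against 46.0 RPKM), AJUBA (10.2 against 23.7) and ANKRD1 (178 against 487), with the CDK14-sh point on the left.

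The balance between the 2 effectors therefore differed between the libraries. YAP1 stood at 1.35 times the level of WWTR1 in CDK14-sh and at 4.27 times in the scramble control, a ratio that does not depend on how the libraries are scaled to each other. The first value was 3.16-fold below the second (2.88 to 3.46, 95% interval from the 4 read counts on a log scale). Summed over both genes, the level was 26.6 RPKM in CDK14-sh and 56.8 RPKM in the scramble control, and YAP1 made up 57.5% and 81.0% of these sums.

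Of the TEAD factors, the DNA-binding partners of YAP and TAZ, the most abundant was the one that was lower. TEAD1 had 11.96 RPKM in CDK14-sh and 23.9 RPKM in the scramble control, 1.999-fold lower in CDK14-sh (1.89 to 2.11), and no other row shares its exons. TEAD2 had 3.19 RPKM in CDK14-sh and 2.30 RPKM in the scramble control, 1.39-fold higher (1.08 to 1.78). TEAD3, at 6.58 RPKM in CDK14-sh and 5.19 RPKM in the scramble control, was 1.27-fold higher (1.07 to 1.498). TEAD4 had 2.84 and 3.02 RPKM in the same order, and the interval of its ratio (0.715 to 1.24) includes 1. TEAD1 held 48.7% of the summed TEAD level of 24.6 RPKM in CDK14-sh and 69.5% of the 34.4 RPKM in the scramble control. It remained the highest of the 4 in both libraries.

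The core kinases and their adaptors lay within 2-fold, and in each of 2 paralog pairs the members stood in different places. STK4, encoding MST1, had 12.4 RPKM in CDK14-sh and 16.5 RPKM in the scramble control, 1.33-fold lower (1.25 to 1.41). STK3, encoding MST2, had 2.82 RPKM in CDK14-sh and 2.29 RPKM in the scramble control, 1.23-fold higher (1.08 to 1.40). LATS2, a kinase that is also a target of YAP and TAZ in a feedback loop, had 3.50 RPKM in CDK14-sh and 5.90 RPKM in the scramble control, 1.69-fold lower (1.47 to 1.95). LATS1 had 3.80 RPKM in CDK14-sh and 3.79 RPKM in the scramble control, with an interval of 0.887 to 1.13 for the ratio. LATS2 thus stood at 0.921 times the level of LATS1 in CDK14-sh and 1.56 times in the scramble control. MOB1A, which binds and activates LATS, had 28.1 RPKM in CDK14-sh and 34.2 RPKM in the scramble control, 1.22-fold lower (1.16 to 1.28). Its paralog MOB1B had 11.8 and 12.8 RPKM in the same order, 1.09-fold lower (1.02 to 1.16). SAV1 had 6.66 and 5.93 RPKM in that order, a ratio of 1.12 with an interval of 0.998 to 1.26.

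**Figure D2:**
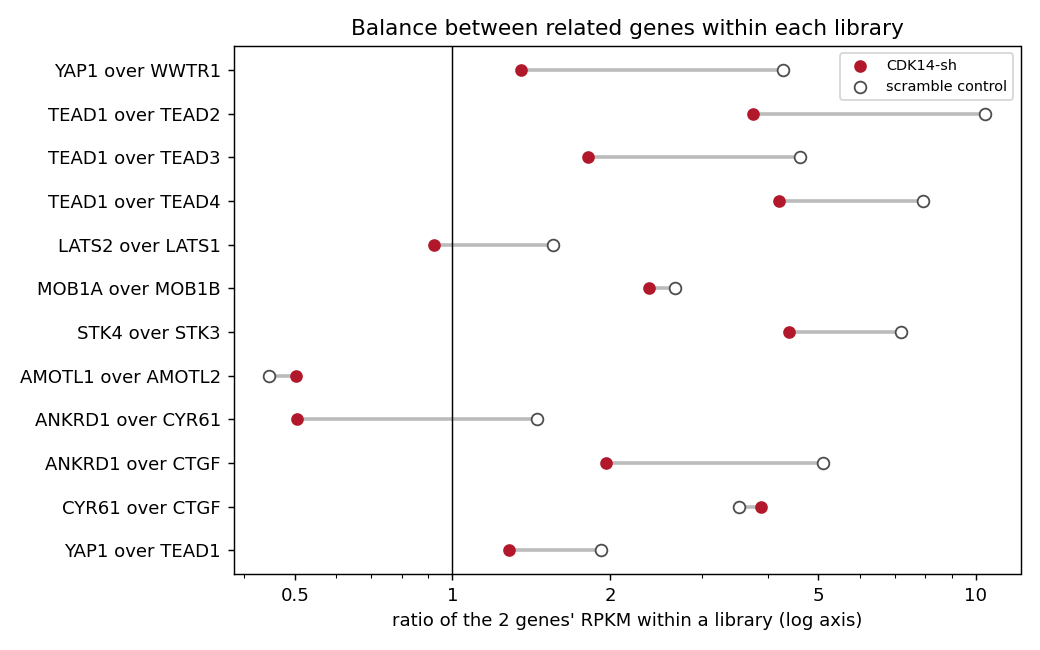
Ratio of the RPKM of 2 genes within a library, on a log axis, for 12 pairs of related or named genes; filled points are CDK14-sh and open points the scramble control. The longest line among the paralog pairs is that of YAP1 over WWTR1 (1.35 in CDK14-sh, 4.27 in the scramble control), and every pair with YAP1, TEAD1 or ANKRD1 on top has its CDK14-sh point on the left.

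Among the angiomotins, which bind YAP at cell junctions, AMOTL2 was the most abundant and AMOT was near the limit of counting. AMOTL2, itself a target of YAP and TAZ, had 18.4 RPKM in CDK14-sh and 18.8 RPKM in the scramble control, and the interval of its ratio was 0.914 to 1.04. AMOTL1 had 9.27 RPKM in CDK14-sh and 8.43 RPKM in the scramble control, 1.10-fold higher (1.02 to 1.18) though at -0.02 log2 when the libraries were rescaled to a common RPKM sum (TPM). AMOT had 9 reads in CDK14-sh against 7 in the scramble control, too few to show a difference, and was the only one of the 36 genes below 1 RPKM in both libraries.

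AJUBA and VGLL4 differed in opposite directions. AJUBA, a LIM protein known for binding and restraining LATS, had 10.2 RPKM in CDK14-sh and 23.7 RPKM in the scramble control, from 947 and 2443 reads, 2.32-fold lower (2.15 to 2.502). VGLL4, which competes with YAP for TEAD binding, had 7.24 RPKM in CDK14-sh and 4.33 RPKM in the scramble control, 1.67-fold higher (1.499 to 1.87), the highest ratio of the 35 genes that reached 1 RPKM in a library. Its exons share 1596 bases, 22.1% of their length, with ATG7 on the opposite strand. ATG7 itself had 478 reads in CDK14-sh against 512 in the scramble control. With all reads of the overlapping rows taken off, VGLL4 kept 330 reads in CDK14-sh against 24 in the scramble control and stood at 3.38 log2. The exons of ATG7 run on beyond the shared bases, so this removal can take off more reads than are shared. Near-equal counts were taken from a pair already higher in CDK14-sh, so the direction was not tested and 3.38 is no estimate of size. WWC1, encoding the LATS activator KIBRA, had 7.30 RPKM in CDK14-sh and 8.83 RPKM in the scramble control, 1.21-fold lower (1.12 to 1.31). TAOK1, a kinase upstream of MST1 and MST2, had 9.69 and 9.51 RPKM in the same order, and the interval of its ratio was 0.966 to 1.08.

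Counts used log2 ratios with 0.1 RPKM added to each level, a scale that understates differences of low genes, over genes that reached 1 RPKM in at least 1 library. Of the 19 pathway genes that passed, 2 were at least 2-fold lower (YAP1 at -1.58 and AJUBA at -1.21) and 0 at least 2-fold higher. Over all 14878 genes that passed, 3.47% were at least 2-fold lower and 3.21% were higher by as much. The median of the pathway genes was -0.03 and that of all genes 0.04. Over the 7 pathway genes whose rows overlap no other, the median was -0.28, with 6 below 0. TEAD1, at -0.99, lay just inside the 2-fold line, and passed it in TPM (-1.15) and after centring on the median gene (-1.04). Pathway genes divided evenly around 0, with 10 below and 9 above, but 14 below and 5 above in TPM, which lowers the median of all genes by 0.15. The rows of YAP1 and AJUBA both overlap another row, so over rows overlapping no other 0 of 7 pathway genes passed 2-fold. AJUBA shares 50 bases with RP11-298I3.5 and stood at -1.32 log2 with all reads of that row taken off.

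**Figure D3:**
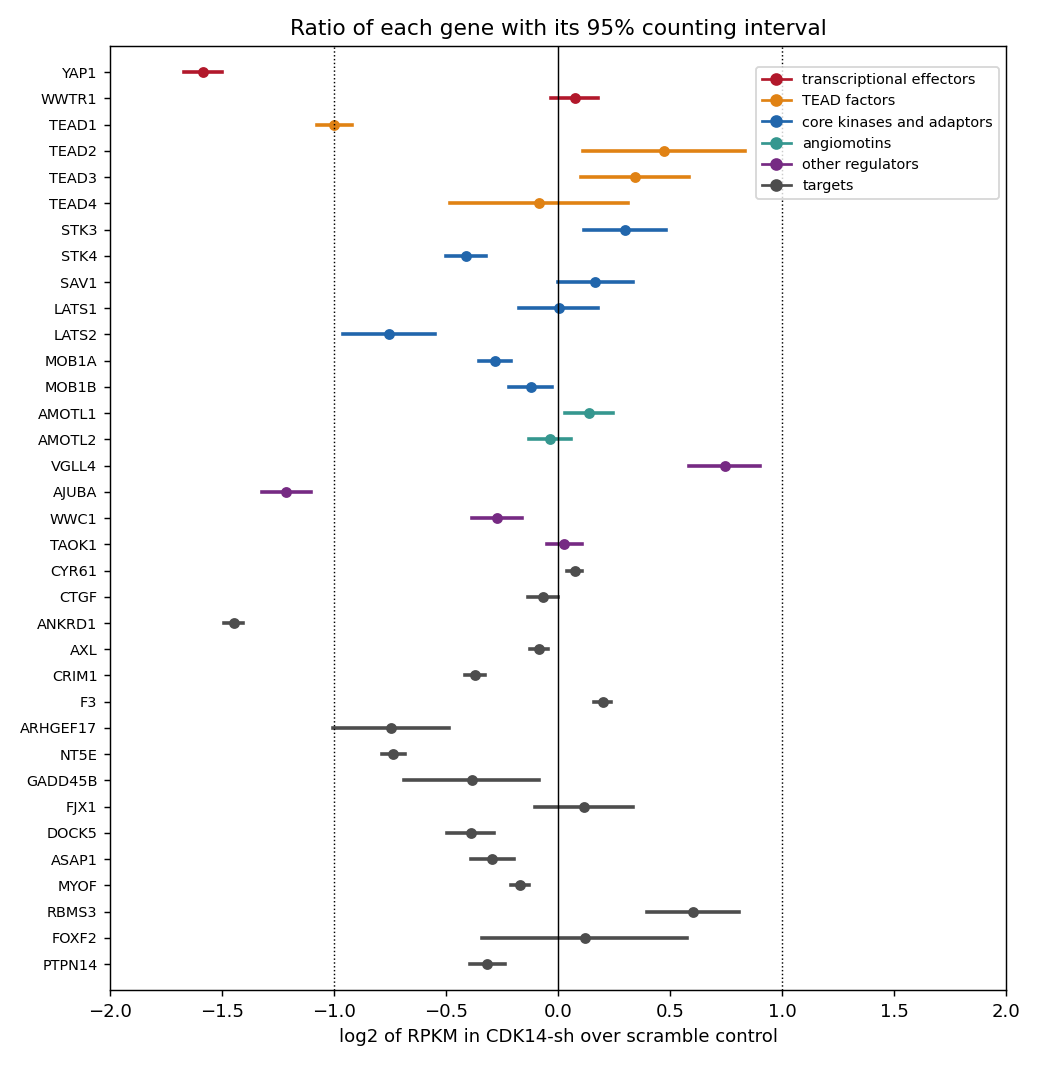
Ratio of RPKM in CDK14-sh over the scramble control on a log2 axis for the 35 genes that reached 1 RPKM; bars are 95% counting intervals, colours give the role, and dotted lines mark 2-fold. YAP1, AJUBA and ANKRD1 lie left of the lower dotted line, TEAD1 lies on it, and no gene lies right of the upper one.

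The target genes held one far outlying member. ANKRD1, which encodes an ankyrin repeat protein of the nucleus and sarcomere, lies on the minus strand of chromosome 10 (90912096 to 90921276). It had 178 RPKM in CDK14-sh and 487 RPKM in the scramble control, from 5459 and 16578 reads, and was 2.73-fold lower in CDK14-sh (2.65 to 2.82). In the scramble control it had the highest level of the 16 targets, 30.6% of their summed 1591 RPKM. In CDK14-sh it was the third, after CYR61 and F3, with 14.3% of 1248 RPKM.

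CYR61 and CTGF, the matricellular proteins most used as readouts of YAP and TAZ, stood at nearly equal levels in both libraries. CYR61 had 353 RPKM in CDK14-sh and 335 RPKM in the scramble control, a ratio of 1.052 (1.03 to 1.08) that turned to -0.08 log2 in TPM. CTGF had 90.8 RPKM in CDK14-sh and 95.2 RPKM in the scramble control, 1.048-fold lower (1.0003 to 1.10). ANKRD1 stood at 0.505 times the level of CYR61 in CDK14-sh and 1.45 times in the scramble control, so the 2 genes exchanged places. The shift of ANKRD1 against CYR61 was 2.87-fold (2.76 to 2.99) and against CTGF 2.60-fold (2.46 to 2.75). The separation of ANKRD1 from the other 2 readout genes was therefore far wider than counting error.

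The promoters of ANKRD1 and CTGF are shown because both hold the TEAD recognition word more than once, while their RNA levels differed between the libraries to unlike degrees. The word GGAATG was searched on both strands (CATTCC on the other) in RefSeq windows of 250 bases before to 50 bases after each gene's start (GRCh38.p14), and capitals mark it. ANKRD1 (chr10:90921038-90921337, minus strand) holds it 220 and 128 bases before the start. CTGF, listed as CCN2 (chr6:131951323-131951622, minus strand), holds it 169, 104 and 95 bases before.
ANKRD1: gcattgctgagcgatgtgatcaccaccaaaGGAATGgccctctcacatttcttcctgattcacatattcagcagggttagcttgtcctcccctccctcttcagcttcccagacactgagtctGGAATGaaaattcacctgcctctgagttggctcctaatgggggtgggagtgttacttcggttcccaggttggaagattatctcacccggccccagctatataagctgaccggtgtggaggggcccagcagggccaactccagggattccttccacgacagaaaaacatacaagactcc
CTGF: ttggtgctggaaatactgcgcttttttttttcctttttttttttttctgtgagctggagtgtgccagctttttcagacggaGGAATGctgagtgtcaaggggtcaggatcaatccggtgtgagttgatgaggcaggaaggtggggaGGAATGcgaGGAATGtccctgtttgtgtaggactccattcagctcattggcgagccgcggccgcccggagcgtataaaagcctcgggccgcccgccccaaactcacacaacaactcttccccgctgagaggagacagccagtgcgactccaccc

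Of the 28 members found in that promoter table, 5 of 11 targets and 4 of 17 pathway genes held the word in at least 1 window, against 15.6% of 15843 protein-coding genes. ANKRD1 and CTGF held it at least 2 times, as 1.42% of protein-coding genes did. The other targets with a match were AXL, FOXF2 and PTPN14, and the pathway genes YAP1, LATS2, AMOTL2 and AJUBA. These are matches of letters and not shown to be bound. TEAD1, TEAD4, STK3, CYR61, CRIM1, ARHGEF17, DOCK5 and ASAP1 had no entry.

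Targets at the cell surface or in membranes lay within 2-fold, and NT5E had the largest difference of them. NT5E, encoding the ecto-nucleotidase CD73, had 62.5 RPKM in CDK14-sh and 104 RPKM in the scramble control, 1.66-fold lower (1.60 to 1.73). CRIM1, a transmembrane protein that binds BMPs, had 62.4 RPKM in CDK14-sh and 80.7 RPKM in the scramble control, 1.29-fold lower (1.26 to 1.34). F3, encoding tissue factor, which starts blood clotting, had 269 RPKM in CDK14-sh and 235 RPKM in the scramble control, 1.15-fold higher (1.12 to 1.18). AXL, a receptor tyrosine kinase, had 123 and 130 RPKM in the same order, 1.06-fold lower (1.03 to 1.09). MYOF, encoding the membrane repair protein myoferlin, had 65.3 and 73.5 RPKM in that order, 1.13-fold lower (1.09 to 1.16). FJX1, the counterpart of Drosophila four-jointed, had 8.99 and 8.30 RPKM in that order, with an interval of 0.931 to 1.26 for the ratio.

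Of the intracellular targets other than ANKRD1, 5 were lower, RBMS3 was higher, and the interval of FOXF2 included 1. ARHGEF17, a guanine nucleotide exchange factor, had 1.29 RPKM in CDK14-sh and 2.16 RPKM in the scramble control, 1.67-fold lower (1.40 to 2.01). DOCK5, a Rac exchange factor, and GADD45B, a stress-induced gene, were both 1.31-fold lower, with intervals of 1.22 to 1.41 and 1.06 to 1.61. PTPN14, a phosphatase that binds YAP, was 1.25-fold lower (1.18 to 1.32) and ASAP1, an Arf GTPase-activating protein, 1.23-fold lower (1.15 to 1.31). RBMS3, encoding an RNA-binding protein, had 1.66 RPKM in CDK14-sh and 1.10 RPKM in the scramble control, 1.52-fold higher (1.32 to 1.75). The forkhead factor gene FOXF2 had 82 reads in CDK14-sh against 84 in the scramble control, and its interval for the ratio was 0.791 to 1.49.

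All 16 targets passed 1 RPKM; 1 was at least 2-fold lower and 0 at least 2-fold higher. Their median log2 ratio was -0.23, against 0.04 over all genes, and 11 of 16 (68.8%) lay below 0, against 45.3% of all genes. In TPM the targets' median was -0.38 and that of all genes -0.11. Counting intervals lay wholly below 1 for 11 targets, wholly above it for 3 and included 1 for 2. For the 19 pathway genes these numbers were 8, 5 and 6, and for all 14878 genes that passed they were 3358, 4061 and 7459. More reads narrow an interval, and the median level in the higher library was 44.0 RPKM for targets against 5.54 RPKM for all genes. Among the 11542 protein-coding genes, 2.21% were at least 2-fold lower and 1.14% were higher by as much, and the median was 0.03.

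**Figure D4:**
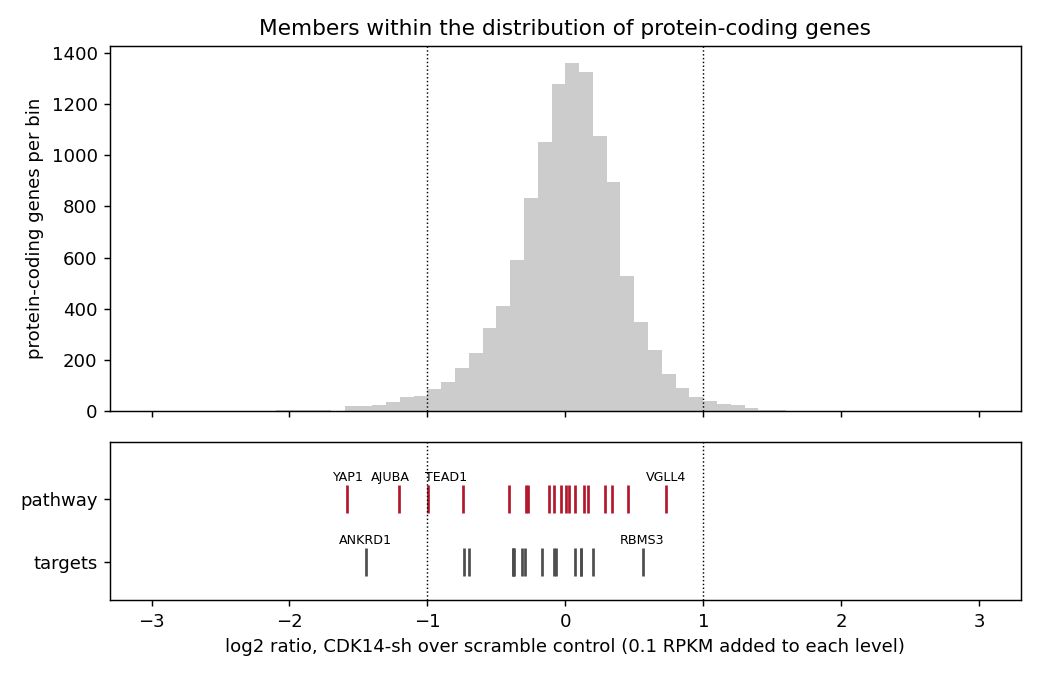
Upper panel: number of protein-coding genes in each bin of 0.1 of the log2 ratio of CDK14-sh over the scramble control. Lower panel: 1 tick for each of 19 pathway and 16 target genes on the same axis, with dotted lines at 2-fold; YAP1 (-1.58), ANKRD1 (-1.45) and AJUBA (-1.21) stand in the left tail past the dotted line, TEAD1 (-0.99) stands at it, and the other ticks lie between the dotted lines.

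Gene length moved with the ratio over all protein-coding genes. In 4 groups of equal size by exon length, the median log2 ratio was 0.12 in the shortest (up to 3393 bases) and -0.04 in the longest (from 7620 bases). Of the members, 10 fell in the shortest group and 15 in the longest. ANKRD1, at 1979 bases, and CYR61 and CTGF all belong to the shortest group. The part of length in the members' ratios was not tested.

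Short words in the members' 3′ untranslated regions (UTRs) were described as well. A set of 4 words of 7 letters were used, which had been picked from these same ratios in an earlier look at the data, so what follows is a description. The first is GTCATGC and the second is TCATGCA, while the third reads ATCCATA and the last one is TCCATAA. They were searched on the sense strand of the GENCODE v29 basic transcript with the longest 3′ UTR. The first pair overlap each other by all but 1 letter, as do the second pair. Of all protein-coding genes searched, 55.1% of the 254 at least 2-fold lower carry at least 1 of the words. The share was 25.3% of genes within 2-fold and 19.7% of those at least 2-fold higher. YAP1, TEAD1 and AJUBA, the pathway genes with the lowest ratios, all carry at least 1. Their sites are printed with that of LATS2, the pathway gene with the next lowest ratio (-0.74 log2), the word in capitals. YAP1 (chr11:102229993-102230022, plus strand) has its site 65 bases into the UTR. TEAD1 (chr11:12943439-12943468, plus) carries GTCATGC in 2 places, of which the one that runs on into TCATGCA is shown. AJUBA has sites at chr14:22972009-22972038 and chr14:22972368-22972397 (minus), and LATS2 at chr13:20974497-20974526 (minus).
YAP1: gcaccggaaattTCCATAAgccagttgcag
TEAD1: agtttcactgaaGTCATGCaccattaaata
AJUBA first site: ctattcttttttGTCATGCtttggatattt
AJUBA second site: gtgtgggtgtgtTCATGCAcacacacactc
LATS2: catttgtattttATCCATAgcacttattca

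In all, 9 of 36 members (25.0%) carried a word, 7 of the 20 pathway genes and 2 of the 16 targets, against 25.9% of 11471 protein-coding genes searched. All 9 had ratios below 0, from -0.12 for MOB1B to -1.58 for YAP1, with a median of -0.70. The others were TEAD1, AJUBA, LATS2, ARHGEF17, STK4, ASAP1 and MOB1A. Of the 26 members without a word that passed the level filter, 12 lay below 0, and their median was 0.02. Over all protein-coding genes, 59.6% of carriers and 41.7% of the rest lay below 0, with medians of -0.09 and 0.07. ANKRD1 and NT5E, the lowest targets, carry none. Carriers also had longer UTRs, with a median of 3069 bases against 1027 for genes without a word, and the part of the words in these ratios was not tested.

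**Figure D5:**
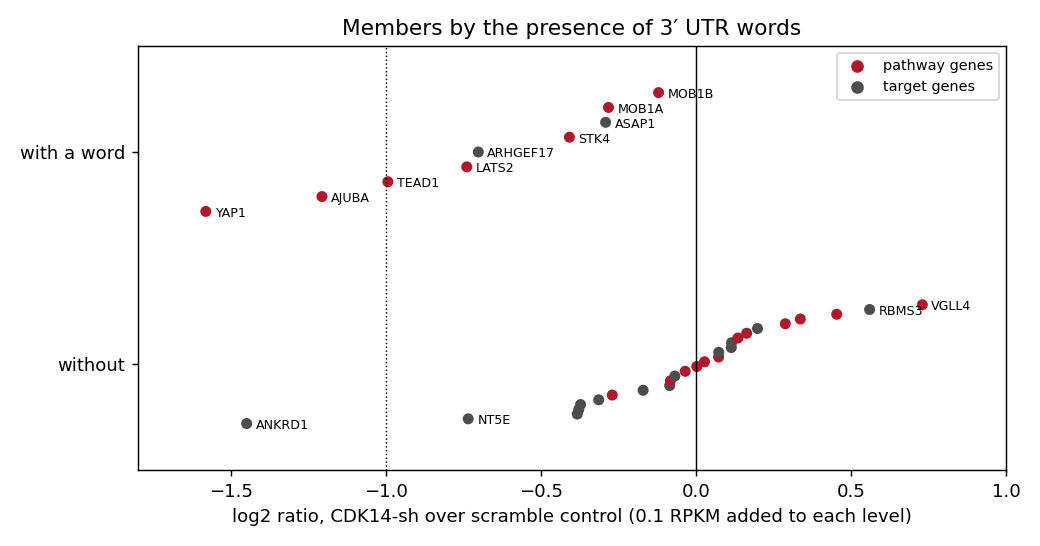
Log2 ratio of CDK14-sh over the scramble control for the 35 members that reached 1 RPKM, in a row for members whose 3′ UTR carries at least 1 of the 4 words and a row for those without; red points are pathway genes and grey points targets, and the vertical spread within a row only separates the points. All 9 carriers lie left of 0, and ANKRD1 is the lone point past 2-fold in the row without a word.

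The wider pathway, taken from a list of 45 further upstream genes, held members on both sides. CRB3 and VGLL1 were not analysed here, and 37 passed the level filter with a median of 0.004. Past 2-fold were 1 higher and 1 lower gene (2.70% each), near the 3.21% and 3.47% of all genes. Counting intervals lay wholly above 1 for 14 of the 37 and wholly below it for 11, against 4061 and 3358 of all 14878 genes. STK38L, an NDR kinase related to LATS, had 11.1 RPKM in CDK14-sh and 5.08 RPKM in the scramble control, 2.19-fold higher (1.98 to 2.42). WWC3, a paralog of WWC1, had 3.86 RPKM in CDK14-sh and 8.29 RPKM in the scramble control, a ratio of 0.466 (0.415 to 0.522), and its 3′ UTR carries TCATGCA. TNIK, of the MAP4K family, had 2.24 RPKM in CDK14-sh and 1.15 RPKM in the scramble control (ratio 1.95, 1.61 to 2.37). RASSF2, which binds MST kinases, had 0.606 and 1.07 RPKM in the same order (ratio 0.567, 0.401 to 0.794). NF2, named for its role in this line and after its values were seen, was 1.45-fold higher (1.14 to 1.85) on 162 reads in CDK14-sh against 124 in the scramble control, and carries ATCCATA.

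The STRIPAK complex, a phosphatase assembly that removes phosphate from MST1 and MST2, had 0 of 16 members past 2-fold, a count too small to set apart from the 3.21% higher and 3.47% lower of all genes, and a median of 0.03. Its largest differences were those of FGFR1OP2 (ratio 0.647, 0.576 to 0.725), STK25 (0.813, 0.728 to 0.908), STRN4 (1.22, 1.14 to 1.32) and STRIP2 (0.828, 0.717 to 0.955).

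A further list of 25 genes reported elsewhere as YAP/TAZ targets, many of which also answer to other pathways, went both ways. Of 23 that passed, 2 (8.70%) were higher and 3 (13.0%) lower by 2-fold or more, against 3.21% and 3.47% of all genes, with a median of -0.01. INHBA, encoding an activin subunit, had 6.79 RPKM in CDK14-sh and 2.49 RPKM in the scramble control, 2.72-fold higher (2.41 to 3.09), and its 3′ UTR carries TCATGCA. SDPR, encoding the caveolar protein cavin-2, had 6.68 RPKM in CDK14-sh and 21.6 RPKM in the scramble control, a ratio of 0.310 (0.274 to 0.350). IGFBP3, which binds insulin-like growth factors, had 3.08 and 7.95 RPKM in the same order, and AGFG2 had 1.45 and 3.27 RPKM. These last 2 had ratios of 0.387 (0.331 to 0.453) and 0.444 (0.357 to 0.549).

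Checks of the libraries were as follows. CDK14 itself had 58 reads in CDK14-sh against 292 in the scramble control. The share of mitochondrially encoded genes was 17.1% of the CDK14-sh library and 14.5% of the scramble one. Markers of the line summed to 429 RPKM in CDK14-sh and 707 RPKM in the scramble control, with all 6 above 1 RPKM. Luminal markers, of which 4 of 8 passed 1 RPKM, summed to 38.9 and 58.9 RPKM in the same order, with CDH1 at 0 and 2 reads and ESR1 at 8 and 2. KRT8 carried the lower luminal sum, with 27.7 RPKM in CDK14-sh and 48.6 RPKM in the scramble control, while ERBB2, GATA3 and EPCAM had log2 ratios from 0.03 to 0.33. Of the markers of other cell types, 1 of 6 for fibroblasts passed 1 RPKM, with DCN and LUM at 0 in both libraries and sums of 2.07 and 1.81 RPKM. For endothelium it was 1 of 4, with VWF at 0 and sums of 1.65 and 1.86 RPKM. Of 4 leukocyte markers analysed, only CD68 passed 1 RPKM, the sums were 128 and 129 RPKM, and PTPRC had 3 reads in each library. Their part in the members' ratios was not tested.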

How the data were processed

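RNA of 2 MDA-MB-231 cultures was sequenced after a stranded mRNA preparation, per the labels' protocols. The authors deposited RPKM values per gene row, with exon positions and summed exon length, per the file headers. Bowtie 0.12.2, Subread 1.5.1, featureCounts, GRCh38 and mm8 appear, without roles, per the submitters' processing notes. Strand and overlap settings of the counting: not given in the sources used here. Multiplying RPKM by length gave a whole multiple of 1 step for 100% of nonzero values (within 0.1 read), which returned reads per gene. Coordinates match GENCODE v29 (GRCh38) at both ends for 33 of 36 members. Where several genes were compared, RPKM was used with 0.1 added and a minimum of 1 RPKM in the higher library. No test was possible with 1 library per group. Intervals cover counting error only, since each group has 1 library. Reads were not marked as separate molecules, so copies of 1 molecule cannot be told apart and the intervals may be too narrow. For scale, 3 reads in a gene of 1 kb equal 0.194 RPKM in CDK14-sh and 0.174 RPKM in the scramble control. Intervals were tested on simulated reads drawn with counting error alone, which cannot speak to spread between cultures or to reads shared by overlapping rows. Named genes are all members and, of each further list, those past 2-fold or, where under 4 pass, the 4 largest ratios. One gene of the further target list that this rule names is not reported here. Members and lists were chosen with earlier results of these data known. Alternatives covered pseudocount, level filter, read minimum, scaling, overlap and threshold. Software was matplotlib 3.10.9, scipy 1.17.1, pandas 2.3.3, numpy 2.4.6 and Python 3.11.15.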

Additional observations from a re-analysis of the deposited data

How the results depend on the processing

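No paired analysis was possible because there was just 1 library per group. Of the alternatives, 2 were chosen after seeing the data, the limit to protein-coding genes with at least 30 reads and the removal of reads of overlapping rows. YAP1, AJUBA and ANKRD1 stayed at least 2-fold lower in every alternative that could hold them; over rows overlapping no other, YAP1 and AJUBA do not enter. Genes past 2-fold numbered 994 over all genes. They numbered 435 with 1 RPKM added, 4216 with no level filter, 260 with at least 5 RPKM, 534 with at least 30 reads, 1737 in TPM, 622 over rows overlapping no other, 2776 at 1.5-fold and 387 among protein-coding genes. At 1.5-fold, 5 of 19 pathway genes (4 lower, 1 higher) and 3 of 16 targets (all lower) passed. Over all 14878 genes, 1421 were lower and 1355 higher by as much. At 2-fold over rows overlapping no other, 0 pathway genes passed, since fewer genes enter. The pathway median was -0.19 in TPM and -0.28 over rows overlapping no other, and the target median was -0.38 in TPM, which shifts all genes by -0.15. Over the members, 308 values were recomputed: 273 lay inside the counting interval of the reported value, 35 outside it, and 11, from 8 genes, had the opposite sign, none of them past 2-fold. With the reads of overlapping rows taken off, VGLL4 passed 2-fold (3.38, reported 0.73) and MOB1B stood at -0.53 (reported -0.12). All reads of those rows were taken off, including any outside the shared bases, so these values can overstate the effect of sharing. Genes with few reads, such as AMOT, are limited by depth.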
